A study of Mus musculus with 8 samples.

Results

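The genes described here are markers and effectors of natural killer (NK) cells in the mouse uterus, with interleukin-15, the cytokine on which these cells depend. They are *Ncr1*, *Klrb1c*, *Klrk1*, *Gzma*, *Gzmb*, *Prf1*, *Nkg7*, *Eomes*, *Tbx21* and *Il15*, chosen by name and found by their Ensembl identifiers in a table of 52325 genes, of which they make up 10. RNA was sequenced in bulk from endometrium cut by laser from frozen sections of the uterus of female mice held to the metestrus stage of the estrous cycle. Libraries Mut 1 to Mut 4 came from Thra1PV/+ mice and WT 1 to WT 4 from wild-type (WT) mice. Thra1PV/+ mice carry the PV mutation, a frameshift at the C-terminus of thyroid hormone receptor TRα1, on 1 allele of *Thra*, with the other allele intact. The mutant receptor is dominant negative. The age of the sequenced mice is not given in the sources used here, and the libraries are treated as separate mice, since each group is described as 4 mice. None of the animals is described as pregnant. Of 8 decidual genes found, *Prl8a2* and *Prl3c1*, which mark the stroma of pregnancy, were at 0 counts in all 8 libraries. The others had counts in at least 1 library, and 5 had enough to be tested.

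NK cells are lymphocytes that kill without a rearranged antigen receptor. They weigh activating signals, for example through NKp46 and NKG2D, against inhibitory ones from receptors for MHC class I, and then release perforin and granzymes from secretory granules. In the uterus they are scattered through the stroma of the cycling endometrium and multiply in the decidua after implantation, where they act on the spiral arteries. Interleukin-15, presented on the alpha chain of its receptor by stromal and myeloid cells, keeps them alive, and the T-box factors EOMES and T-bet direct their maturation. Most of these genes are not private to NK cells. *Ncr1* and *Klrb1c* are absent from most T cells, whereas *Klrk1*, *Gzma*, *Gzmb*, *Prf1*, *Nkg7*, *Eomes* and *Tbx21* are shared with cytotoxic T cells.

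The genes lie on 8 chromosomes, by GENCODE release M21 of mouse build GRCm38, which holds the identifiers of all 10 genes in the same version as the counts, and all are protein coding. The receptor genes *Klrb1c* (chr6:128778485-128789215, minus strand) and *Klrk1* (chr6:129610323-129623864, minus strand) are both in the NK gene complex of chromosome 6. *Ncr1* (chr7:4337724-4345164) and *Nkg7* (chr7:43437073-43438249) are on the plus strand of chromosome 7. The effector genes are *Prf1* (chr10:61297833-61304680, plus strand), *Gzma* (chr13:113093825-113100981, minus strand) and *Gzmb* (chr14:56258838-56262260, minus strand). The transcription factor genes are *Eomes* (chr9:118478212-118486132, plus strand) and *Tbx21* (chr11:97098071-97115331, minus strand), and *Il15* spans chr8:82331632-82403222 on the minus strand.

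Upstream sequence from RefSeq (GRCm38.p6) was found for 9 of the 10 genes, all but *Il15*. The 250 bases before the start site are shown for the NK-restricted receptor gene *Ncr1*, for 2 granule genes whose levels were highest in the same library, and for *Gzma*, whose levels differed in pattern from theirs. Capitals mark the letters TGTGGT, the core recognised by RUNX factors, and GGTGTGA, a core recognised by T-box factors such as EOMES and T-bet, both searched on both strands, so that ACCACA is the same RUNX core on the other strand. Each sequence runs 5′ to 3′ on the strand of its gene.
Ncr1, chr7:4337474-4337723, plus strand: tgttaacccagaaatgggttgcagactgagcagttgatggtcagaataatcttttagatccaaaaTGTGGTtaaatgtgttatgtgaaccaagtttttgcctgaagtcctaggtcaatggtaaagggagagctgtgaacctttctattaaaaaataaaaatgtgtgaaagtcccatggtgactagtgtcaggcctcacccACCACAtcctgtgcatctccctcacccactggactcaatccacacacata
Prf1, chr10:61297586-61297835, plus strand: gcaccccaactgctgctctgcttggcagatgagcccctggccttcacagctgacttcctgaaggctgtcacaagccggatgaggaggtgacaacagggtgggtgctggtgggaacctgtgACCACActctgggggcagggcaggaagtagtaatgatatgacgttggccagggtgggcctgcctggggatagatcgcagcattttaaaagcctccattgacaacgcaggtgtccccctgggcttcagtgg
Gzmb, chr14:56262335-56262584, minus strand: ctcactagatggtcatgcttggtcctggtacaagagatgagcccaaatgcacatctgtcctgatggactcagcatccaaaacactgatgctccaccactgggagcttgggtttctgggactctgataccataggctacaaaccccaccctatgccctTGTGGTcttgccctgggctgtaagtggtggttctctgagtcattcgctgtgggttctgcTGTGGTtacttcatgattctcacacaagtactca
Gzma, chr13:113100982-113101231, minus strand: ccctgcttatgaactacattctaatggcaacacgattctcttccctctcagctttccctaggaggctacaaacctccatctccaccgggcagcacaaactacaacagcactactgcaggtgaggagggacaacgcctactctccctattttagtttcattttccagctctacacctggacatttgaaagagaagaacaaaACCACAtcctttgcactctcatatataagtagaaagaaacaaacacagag
The RUNX core was found in 7 of the 9 sequences, in *Ncr1* and *Gzmb* at 2 places each, at -185 and -50 and at -93 and -34 from the start site, and was absent from these windows of *Eomes* and *Tbx21*. It is a common string, present in 14.0% of the 32851 mouse promoter windows of the same table and length. The T-box core was found in 1 of the 9, at -13 in *Nkg7* (3.33% of all windows). All distances are from the RefSeq start site, which can differ from the GENCODE positions given above. The *Nkg7* window, chr7:43436888-43437137, runs past the GENCODE start at 43437073, so by GENCODE this match lies within the gene. The *Gzmb* window stops at 56262335, short of the GENCODE start at 56262260. The STAT core TTCNNNGAA, for the factors that signal downstream of interleukin-15, was also found in 1, at -220 in *Nkg7* (7.02% of all windows). No matches overlapped. A match of letters is a description of the sequence and does not show that a factor binds there.

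The deposited values were estimated counts per gene, which summed to between 48791602 and 59818887 in a library. Levels are given as CPM, the counts scaled to library size after TMM normalization, in the order of replicates 1 to 4. All 10 genes passed the filter on low counts, with 15 to 1198 counts in a library. Differences are log2 fold changes of Thra1PV/+ minus WT endometrium from edgeR's quasi-likelihood test over the 18174 genes that passed. The thresholds for a call were those of the study, a Benjamini-Hochberg adjusted p of at most 0.1 with at least a 2-fold difference.

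In edgeR's quasi-likelihood test none of the 10 genes was called and none had an unadjusted p under 0.05, against 0.99% of all tested genes called (0.924% higher and 0.066% lower in Thra1PV/+ endometrium) and 9.77% with an unadjusted p under 0.05. DESeq2 also called 0 of the 10 and gave none an unadjusted p under 0.05, against 3.86% of all tested genes called. The log2 fold change was below 0 for 9 of the 10 (56.8% of all tested genes) and -1 or lower for 5 (6.83% of all tested genes). The median was -0.84, against -0.053 over all tested genes. The values of the genotypes overlapped for each of the 10 genes, whereas 6.04% of all tested genes did not overlap. Most of the spread lay within the genotypes. Libraries Mut 1, WT 1 and WT 2 were the 3 highest libraries for 7 of the 10 genes, an order seen in 13.7% of all tested genes.

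These 3 libraries also stood apart in tissue makeup. The summed CPM of 10 endometrial stroma genes (*Pgr*, *Esr1*, *Hoxa10*, *Hoxa11*, *Hand2*, *Nr2f2*, *Vim*, *Pdgfra*, *Col1a1* and *Col3a1*) was 5620, 740.4, 1238 and 1632 in Mut 1 to Mut 4 and 4260, 5103, 1729 and 1729 in WT 1 to WT 4. Mut 1, WT 1 and WT 2 were thus the libraries rich in stromal transcripts, and they were the 3 highest for 8 of the 10 stroma genes. Simple epithelium genes ran the other way, with summed values of 6399, 13728, 15989 and 11869 CPM in Mut 1 to Mut 4 and 4817, 3694, 21628 and 17517 CPM in WT 1 to WT 4. Library WT 1 was set off further by smooth muscle genes, which summed to 12640 CPM there and to between 125 and 1094 CPM in the other 7 libraries. In Thra1PV/+ endometrium all 7 squamous epithelium genes were called higher, by 4.52 to 8.91 on the log2 scale, and *Trp63*, *Col17a1* and *Ivl* were called with each of the 8 libraries left out in turn, whereas *Krt5*, *Krt14*, *Krt15* and *Dsg3* each lost the call without at least 1 library. In bulk samples, fewer cells of a type and less RNA per cell cannot be told apart, and the part of the stromal share in the values below was not tested.

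**Figure D1:**
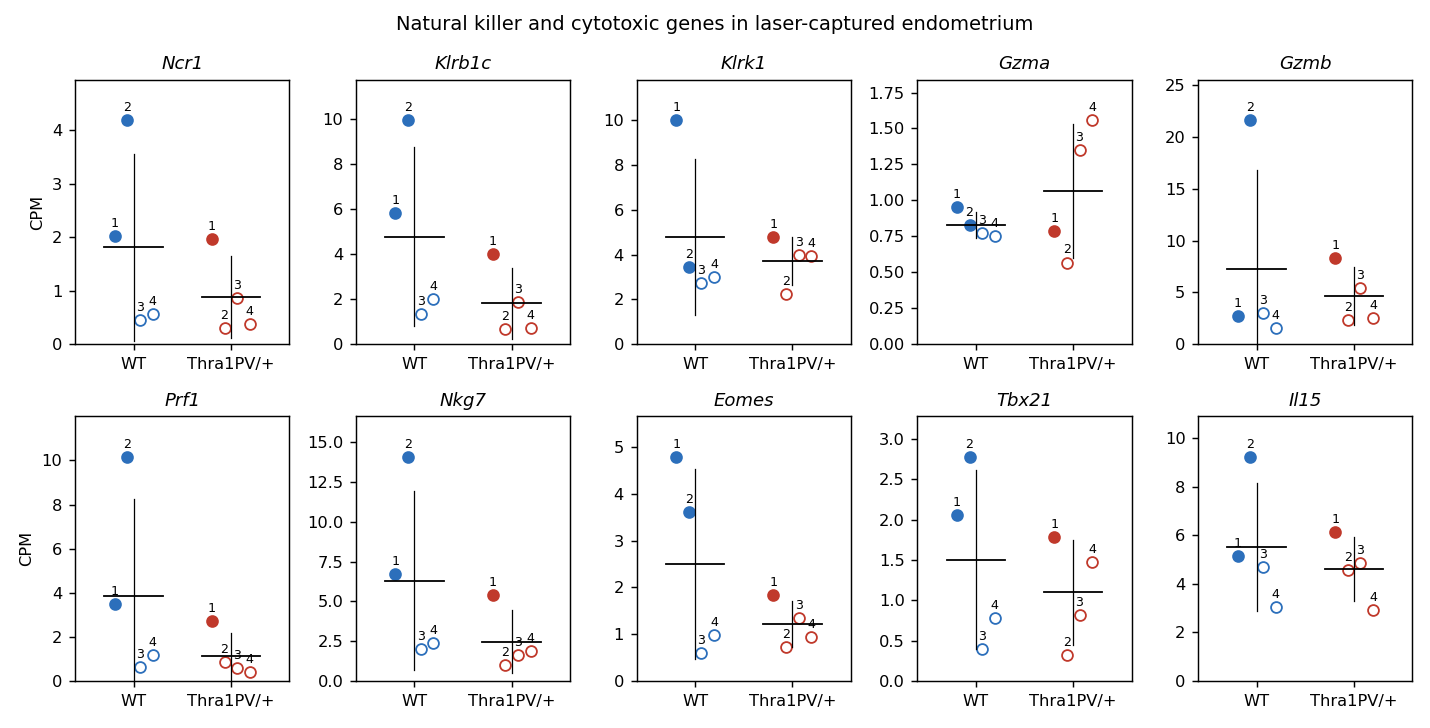
CPM (y axis, linear, from 0) of each of the 10 genes in the WT and Thra1PV/+ libraries, numbered by replicate, with the mean (horizontal line) and SD (vertical line, stopped at 0) of each genotype, n = 4. Filled points are the 3 libraries rich in stromal transcripts (Mut 1, WT 1 and WT 2), which are the 3 highest points for 7 of the 10 genes.

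Among the receptors, *Ncr1* encodes NKp46, an activating receptor that defines NK cells in mice. It was at 1.96, 0.304, 0.858 and 0.385 CPM in Mut 1 to Mut 4 and at 2.02, 4.19, 0.458 and 0.565 CPM in WT 1 to WT 4. Mut 1 lay beside WT 1, the other 3 Thra1PV/+ libraries lay around WT 3 and WT 4, and the groups overlapped. The log2 fold change was -1.04 (SE 0.85, Benjamini-Hochberg adjusted p = 0.762 in edgeR's quasi-likelihood test), with group means of 0.878 ± 0.764 and 1.81 ± 1.74 CPM (SD, n = 4 each). It was -0.19 without WT 2 and -1.75 without Mut 1.

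*Klrb1c* encodes NK1.1, the lectin-like receptor by which NK cells are stained in many mouse strains. Its levels were 4.02, 0.670, 1.88 and 0.718 CPM in Mut 1 to Mut 4 and 5.82, 9.95, 1.33 and 2.01 CPM in WT 1 to WT 4. The order of the libraries was close to that of *Ncr1*, with WT 2 highest and Mut 2 lowest in both. The difference was -1.39 on the log2 scale (SE 0.79, Benjamini-Hochberg adjusted p = 0.639 in edgeR's quasi-likelihood test), -0.72 without WT 2 and -2.08 without Mut 1.

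*Klrk1* encodes NKG2D, an activating receptor for stress-induced ligands that is also carried by cytotoxic T cells. It was measured at 4.79, 2.23, 3.98 and 3.92 CPM in Mut 1 to Mut 4 and at 10.02, 3.45, 2.73 and 2.99 CPM in WT 1 to WT 4. WT 1 alone stood high, and Mut 1, Mut 3 and Mut 4 were above the other 3 WT libraries. The log2 fold change of -0.36 (SE 0.48, Benjamini-Hochberg adjusted p = 0.870 in edgeR's quasi-likelihood test) became 0.33 without WT 1.

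Of the effectors, *Prf1* encodes perforin, which opens the target membrane to granzymes, and it had the lowest log2 fold change of the 10. It was at 2.70, 0.852, 0.572 and 0.385 CPM in Mut 1 to Mut 4 and at 3.47, 10.2, 0.617 and 1.19 CPM in WT 1 to WT 4. WT 2 was the highest library, and WT 3 lay among the low Thra1PV/+ libraries. For *Prf1* the log2 fold change was -1.77 (SE 0.93, Benjamini-Hochberg adjusted p = 0.612 in edgeR's quasi-likelihood test), and it was -0.62 without WT 2 and -2.62 without Mut 1.

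*Nkg7* encodes a membrane protein of cytotoxic granules needed for their release. Its levels were 5.40, 0.974, 1.66 and 1.86 CPM in Mut 1 to Mut 4 and 6.75, 14.1, 2.01 and 2.39 CPM in WT 1 to WT 4. The 3 libraries rich in stroma held the 3 highest values, and among the other 5 libraries WT 3 and WT 4 were just above the highest Thra1PV/+ value. The difference was -1.35 on the log2 scale (SE 0.75, Benjamini-Hochberg adjusted p = 0.629 in edgeR's quasi-likelihood test), -0.57 without WT 2 and -2.02 without Mut 1.

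The granzymes are serine proteases that start apoptosis or cleave matrix once inside or around a target. *Gzmb* was at 8.34, 2.29, 5.41 and 2.54 CPM in Mut 1 to Mut 4 and at 2.77, 21.6, 3.04 and 1.59 CPM in WT 1 to WT 4. Only WT 2 exceeded Mut 1, and Mut 3 was above the other 3 WT libraries. Its log2 fold change of -0.64 (SE 0.86, Benjamini-Hochberg adjusted p = 0.870 in edgeR's quasi-likelihood test) rested on WT 2 and was 0.94 without it.

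*Gzma* was the 1 gene of the 10 with a positive log2 fold change and the one with the narrowest range. It was at 0.790, 0.568, 1.35 and 1.56 CPM in Mut 1 to Mut 4 and at 0.954, 0.831, 0.776 and 0.754 CPM in WT 1 to WT 4. The 4 WT libraries lay close together, at 0.828 ± 0.0897 CPM (SD, n = 4), with Mut 3 and Mut 4 above and Mut 2 below them. It differed by 0.36 on the log2 scale (SE 0.39, Benjamini-Hochberg adjusted p = 0.8286 in edgeR's quasi-likelihood test). Unlike the other effectors, *Gzma* was not high in Mut 1 or WT 2.

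The transcription factor gene *Eomes* was at 1.84, 0.731, 1.35 and 0.946 CPM in Mut 1 to Mut 4 and at 4.79, 3.61, 0.597 and 0.984 CPM in WT 1 to WT 4. WT 1 and WT 2 were above all Thra1PV/+ libraries and WT 3 was below them all. The difference was -1.04 on the log2 scale (SE 0.67, Benjamini-Hochberg adjusted p = 0.676 in edgeR's quasi-likelihood test). *Tbx21*, which encodes T-bet, was at 1.78, 0.325, 0.817 and 1.47 CPM in Mut 1 to Mut 4 and at 2.06, 2.78, 0.398 and 0.774 CPM in WT 1 to WT 4. Here Mut 1 and Mut 4 fell between the high and the low WT libraries. For *Tbx21* the log2 fold change was -0.45 (SE 0.71, Benjamini-Hochberg adjusted p = 0.894 in edgeR's quasi-likelihood test), and it was 0.050 without WT 2.

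*Il15*, the cytokine gene, is expressed mainly by stromal, epithelial and myeloid cells, not by the NK cells that respond to it. Its levels were 6.15, 4.59, 4.86 and 2.94 CPM in Mut 1 to Mut 4 and 5.17, 9.24, 4.70 and 3.03 CPM in WT 1 to WT 4. Mut 1, WT 1 and WT 2 were again its 3 highest libraries, in a narrower range, with Mut 4 and WT 4 nearly level at the bottom, and the groups overlapping throughout. The difference on the log2 scale was -0.26 (SE 0.39, Benjamini-Hochberg adjusted p = 0.888 in edgeR's quasi-likelihood test), and 0.14 without WT 2.

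**Figure D2:**
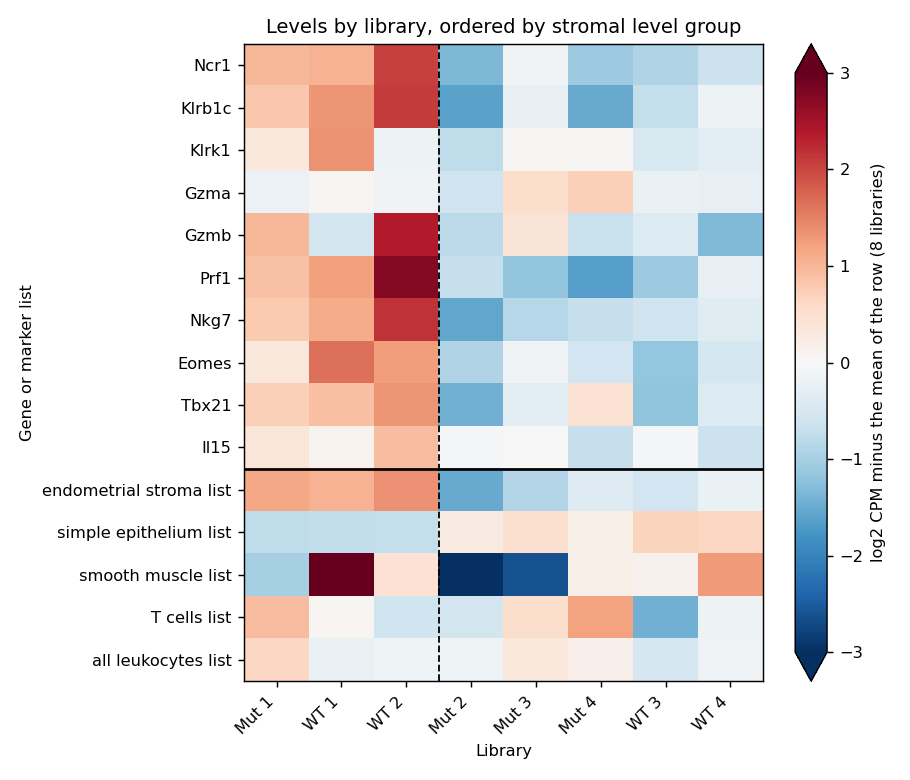
Level of each of the 10 genes (log2 of CPM plus 0.1) and mean log2 CPM of 5 marker lists, minus the mean of the row, in the 8 libraries. The dashed line separates the 3 libraries rich in stromal transcripts from the other 5, and the color scale runs from 3 below (blue) to 3 above (red) the row mean, with values beyond it drawn at its ends. *Ncr1*, *Klrb1c*, *Prf1*, *Nkg7*, *Eomes* and *Tbx21* are red in all 3 libraries left of the line, as the stroma list is, and the T cell list is not.

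Compared within the 5 libraries poorer in stromal transcripts (Mut 2, Mut 3 and Mut 4 against WT 3 and WT 4), the log2 fold change was above 0 for 7 of the 10 genes, with a median of 0.21. With the mean log2 CPM of the stroma genes as a term in the fit to all 8 libraries, it was above 0 for 6 of the 10, with a median of 0.064. Neither fit called any of the 10 genes. *Ncr1* was at 0.048 in the first and 0.15 in the second, *Gzmb* at 0.60 and 0.48, and *Tbx21* at 0.61 and 0.58. *Klrb1c*, *Prf1* and *Nkg7* stayed below 0 in both, at -0.58 and -0.37, at -0.55 and -0.44, and at -0.52 and -0.33. Both comparisons were added after the stromal levels were seen. The first leaves out Mut 1, WT 1 and WT 2, which were the 3 highest libraries for 7 of the 10 genes. It thus removes more high WT than high Thra1PV/+ values. The second uses a stromal level that was highest in the same 3 libraries, and all 10 stroma genes had log2 fold changes below 0 in the fit of genotype alone. Stromal level and genotype are thus not separate in these libraries. Neither comparison can show the part of stroma in the difference, which was not tested. The 3 libraries rich in stroma hold 1 Thra1PV/+ library, so no test was made within them. There, Mut 1 was below both WT libraries for *Ncr1*, *Klrb1c*, *Gzma*, *Prf1*, *Nkg7*, *Eomes* and *Tbx21*, and between them for *Klrk1*, *Gzmb* and *Il15*.

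**Figure D3:**
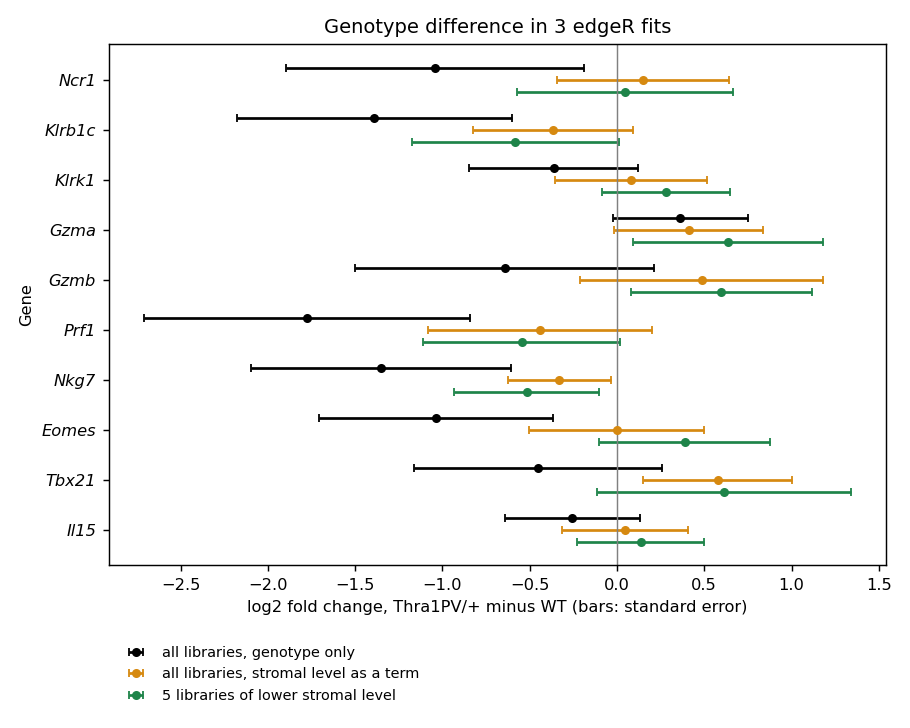
Log2 fold change of Thra1PV/+ minus WT endometrium (x axis) of each of the 10 genes, with its standard error, in the fit of genotype alone to all 8 libraries (black), with stromal level as a further term (orange) and in the 5 libraries poorer in stromal transcripts (green). In black 9 of the 10 points lie below 0, in orange 4 and in green 3, and no gene was called in any of these fits.

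The other genes of the NK program were taken from lists of receptors, granule genes, transcription factors, cytokine signaling and ligands. Of the 36 receptor and adaptor genes listed, 30 were tested, 0 were called by edgeR, and 12 were above and 18 below 0, with a median log2 fold change of -0.53. At an unadjusted p under 0.05, 4 were higher and 7 lower in Thra1PV/+ endometrium (5.05% and 4.72% of all tested genes). DESeq2 called 5 of the 30 (3.86% of all tested genes), with *Klra17* and *Fcgr3* higher and *Klra7*, *Klri2* and *Itga1* lower. The list is not limited to genes private to NK cells, and *Klra17*, *Fcgr3* and *Itga1* are not. The calls, higher or lower, thus cannot as a set be assigned to NK cells. *Fcgr3* averaged 40.2 CPM in Thra1PV/+ and 20.3 CPM in WT endometrium, against 0.878 and 1.81 CPM for *Ncr1*. *Itga1* averaged 9.44 and 31.1 CPM, and it was highest in WT 1 (64.7 CPM), the library set off by smooth muscle genes. *Klrd1*, which encodes CD94, the partner of the NKG2 chains, was at 2.88, 1.42, 2.53 and 1.59 CPM in Mut 1 to Mut 4 and at 6.72, 2.67, 1.41 and 1.65 CPM in WT 1 to WT 4, and it too was highest in Mut 1, WT 1 and WT 2. *Klrc1*, which encodes NKG2A, the inhibitory chain that pairs with CD94, was at 0.275, 0.588, 0.940 and 0.315 CPM in Mut 1 to Mut 4 and at 0.820, 0.433, 0.318 and 0.251 CPM in WT 1 to WT 4. Mut 1 was among the low libraries for *Klrc1*, and the groups overlapped for both genes.

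The Ly49 genes encode a family of mouse receptors, many of them for MHC class I, with inhibitory and activating members. Together, 10 of them summed to 14.7, 13.2, 12.1 and 11.6 CPM in Mut 1 to Mut 4 and to 63.5, 28.3, 8.49 and 16.9 CPM in WT 1 to WT 4. Of these sums, *Klra8* gave 34.1 CPM in WT 1 and 6.74 CPM in Mut 1, and *Klra4* 14.8 and 1.96 CPM. The Thra1PV/+ libraries were close to each other, WT 1 was far above the rest, and WT 3 was below all Thra1PV/+ libraries, so that Mut 1 was not high here as it was for *Ncr1*. Of the 8 Ly49 genes tested, 6 were below 0 and 2 above. Among the receptors, 2 genes whose genotypes did not overlap were picked out after their values were seen, a share near the 6.04% of all tested genes. *Klri2* was at 0.333 to 0.900 CPM in Thra1PV/+ and 0.915 to 3.435 CPM in WT endometrium, and *Klra17*, a Ly49 gene, at 0.552 to 1.32 and 0.126 to 0.440 CPM. Their log2 fold changes were -1.72 and 1.98, with Benjamini-Hochberg adjusted p of 0.341 and 0.224 in edgeR's quasi-likelihood test, which called neither. DESeq2 called both, with adjusted p of 0.0524 and 0.0114. Ly49 genes are close copies of each other, and reads may be split among them in error.

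Of 23 further genes of the cytotoxic granule and its release, 18 were tested and edgeR called 0, with 5 above and 13 below 0 and a median log2 fold change of -0.14. DESeq2 called 1 of them, the death ligand gene *Fasl*, lower in Thra1PV/+ endometrium, with a log2 fold change of -1.80 (Benjamini-Hochberg adjusted p = 0.0901, against 0.367 in edgeR's quasi-likelihood test). The granzymes next to *Gzmb* on chromosome 14 are known from uterine NK cells and activated lymphocytes. One of them, *Gzmc*, was at 18.7, 9.60, 3.76 and 0.946 CPM in Mut 1 to Mut 4 and at 11.01, 38.0, 2.83 and 2.85 CPM in WT 1 to WT 4. The values spread widely in both genotypes, with WT 2 highest and Mut 4 lowest, and its log2 fold change was -0.73 (SE 1.04, Benjamini-Hochberg adjusted p = 0.880 in edgeR's quasi-likelihood test), 0.59 without WT 2 and -1.46 without Mut 1. *Gzmf* was at 2.28, 0.933, 0.0408 and 0.07005 CPM in Mut 1 to Mut 4 and at 1.07, 1.88, 0.378 and 0.230 CPM in WT 1 to WT 4. In Mut 3 and Mut 4 those are 2 and 4 counts.

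*Gzmm*, whose product cuts other substrates than granzymes A and B, had 42 to 118 counts in a library and was at 0.852 to 2.07 CPM in Thra1PV/+ and 0.794 to 2.02 CPM in WT endometrium. The others had few counts. *Gzmd* had 15, 6, 0 and 2 counts in Mut 1 to Mut 4 and 2, 25, 2 and 0 counts in WT 1 to WT 4, again with Mut 1 and WT 2 highest. *Gzme* had at most 4 counts in a library, *Gzmg* 1 count in WT 3 and 0 in all others, and *Gzmk*, a granzyme of memory T cells, between 0 and 11 counts. The granzymes of chromosome 14 resemble each other in sequence, and the way the estimate split reads among them could not be checked.

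**Figure D4:**
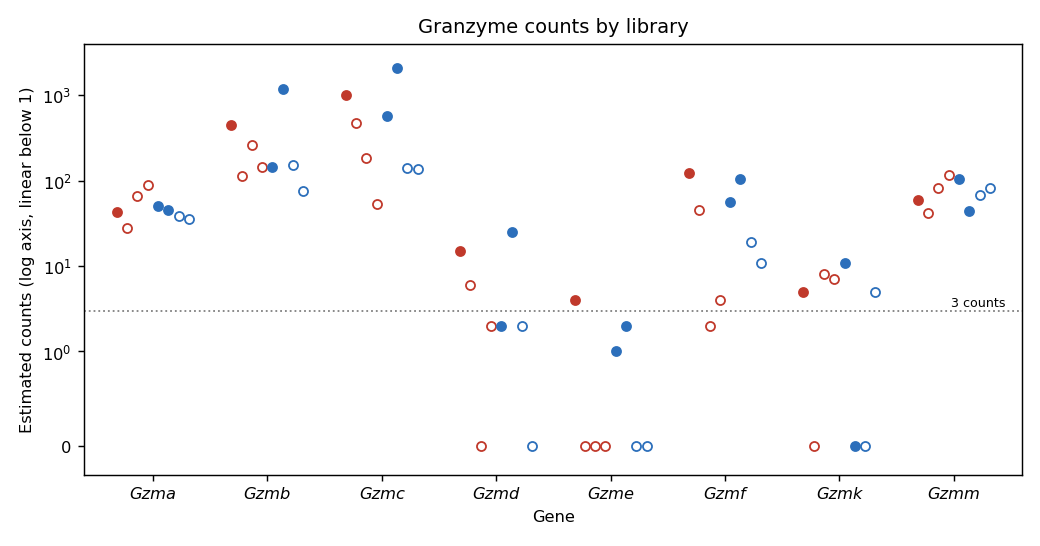
Estimated counts (y axis, log scale, linear below 1) of 8 granzyme genes in the Thra1PV/+ (red) and WT (blue) libraries, replicates 1 to 4 from left to right in each genotype, with the 3 libraries rich in stromal transcripts filled and 3 counts marked by a dotted line. *Gzmb*, *Gzmc*, *Gzmd* and *Gzmf* reach their highest values in filled points, *Gzma* and *Gzmm* in an open one.

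Among 14 transcription factor genes of NK cells other than *Eomes* and *Tbx21*, 13 were tested and the same 2 were called by edgeR and DESeq2, both higher in Thra1PV/+ endometrium (0.924% of all tested genes were called higher). The median log2 fold change of the 13 was 0.056. *Runx3*, which encodes a factor of cytotoxic lymphocytes that is also expressed in epithelial cells, was at 10.03, 5.97, 10.4 and 7.49 CPM in Mut 1 to Mut 4 and at 3.55, 2.64, 1.71 and 2.91 CPM in WT 1 to WT 4. *Gata3*, which encodes a factor of T cells, type 2 innate lymphoid cells and stratified epithelium, was at 12.9, 12.8, 9.87 and 9.47 CPM in Mut 1 to Mut 4 and at 2.63, 2.60, 1.11 and 1.53 CPM in WT 1 to WT 4. For both genes every Thra1PV/+ library was above every WT library. Within the genotypes, *Gata3* was highest in Mut 1, WT 1 and WT 2, by a small margin over Mut 2.

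*Gata3* rose by 2.51 on the log2 scale (SE 0.32, Benjamini-Hochberg adjusted p = 0.0192 in edgeR's quasi-likelihood test) and was called with each of the 8 libraries left out in turn. *Runx3* rose by 1.65 (SE 0.30, Benjamini-Hochberg adjusted p = 0.0749 in edgeR's quasi-likelihood test), close to the threshold. With 1 library left out, its log2 fold change lay between 1.498 and 1.85, and it was called in 1 of the 8 such fits, the one without WT 1. Over all 18 alternatives its adjusted p, by Benjamini-Hochberg in edgeR, limma or DESeq2, ran from 3.45e-06 to 0.258, and 7 of them called it. The 7 squamous epithelium genes rose too, and 17 of the 19 T cell genes tested were above 0 with none called by edgeR. Their part in the rise of *Gata3* and *Runx3* was not tested.

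The supply of interleukin-15 signaling was measured through 19 genes, of which 16 were tested and 0 called by edgeR or DESeq2, with 9 above and 7 below 0 and a median log2 fold change of 0.12. *Il15ra*, which encodes the chain that presents the cytokine, was at 5.12, 8.16, 4.82 and 5.24 CPM in Mut 1 to Mut 4 and at 8.38, 11.9, 8.26 and 9.69 CPM in WT 1 to WT 4. All WT values were above all Thra1PV/+ values, by a small margin over Mut 2 (2.49% of all tested genes were lower without overlap). The log2 fold change was -0.71 (SE 0.25, unadjusted p = 0.0208, Benjamini-Hochberg adjusted p = 0.393 in edgeR's quasi-likelihood test), and the fold of 1.64 was under 2.

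*Il2rb*, which encodes the signaling chain that NK cells use to receive interleukin-15, was at 16.9, 4.61, 6.64 and 6.22 CPM in Mut 1 to Mut 4 and at 15.5, 25.6, 4.36 and 7.20 CPM in WT 1 to WT 4. Its 3 highest libraries were Mut 1, WT 1 and WT 2, as for *Ncr1*, whereas Mut 1 was low for *Il15ra*. Its log2 fold change was -0.61 (SE 0.61, Benjamini-Hochberg adjusted p = 0.812 in edgeR's quasi-likelihood test).

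Of 14 ligands of NK receptors, 11 were tested and 0 called by edgeR or DESeq2, and the median log2 fold change was -0.0049. *Ulbp1*, a stress-induced ligand of NKG2D, was at 6.79, 3.17, 2.72 and 3.10 CPM in Mut 1 to Mut 4 and at 1.13, 2.91, 1.69 and 1.40 CPM in WT 1 to WT 4. Only WT 2 reached into the Thra1PV/+ range. Its log2 fold change was 1.145 (SE 0.43, Benjamini-Hochberg adjusted p = 0.437 in edgeR's quasi-likelihood test). *Raet1e*, from another family of NKG2D ligands, was at 1.16 to 2.04 CPM in Thra1PV/+ and 1.11 to 1.84 CPM in WT endometrium, and its log2 fold change was -0.10.

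T cells share most of the effector genes with NK cells, and their own genes had another pattern. Of 19 T cell genes tested, edgeR called 0, 17 were above 0, and 9 were higher in Thra1PV/+ endometrium at an unadjusted p under 0.05 (5.05% of all tested genes), with a median log2 fold change of 1.20. DESeq2 called 2 of the 19 higher, *Cd4* and *Cd5*. The summed level of the list was 67.65, 26.0, 51.3 and 75.6 CPM in Mut 1 to Mut 4 and 42.5, 37.2, 16.5 and 35.1 CPM in WT 1 to WT 4. The 3 chains of CD3, the signaling complex of the T cell receptor, summed to 14.6, 3.33, 10.6 and 18.0 CPM in Mut 1 to Mut 4 and to 5.78, 4.68, 2.03 and 5.40 CPM in WT 1 to WT 4. Mut 1, Mut 3 and Mut 4 were above all WT libraries and Mut 2 was above WT 3 only, and WT 2, the highest library for *Ncr1*, *Prf1* and *Gzmb*, lay within the WT range of CD3. None of the 19 T cell genes had Mut 1, WT 1 and WT 2 as its 3 highest libraries.

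*Cd3e* was at 3.93, 0.446, 2.82 and 3.52 CPM in Mut 1 to Mut 4 and at 0.840, 0.686, 0.418 and 1.28 CPM in WT 1 to WT 4, a log2 fold change of 1.73 (SE 0.64, Benjamini-Hochberg adjusted p = 0.434 in edgeR's quasi-likelihood test). *Cd8a*, the coreceptor of cytotoxic T cells, was at 0.264 to 0.838 CPM in Thra1PV/+ and 0.0796 to 1.03 CPM in WT endometrium, with a log2 fold change of 0.45, which was 1.46 without WT 4. The constant genes of the gamma and delta receptor chains, which mark T cells common in epithelia, summed to 22.5, 5.11, 15.7 and 20.0 CPM in Mut 1 to Mut 4 and to 9.22, 6.07, 3.36 and 7.28 CPM in WT 1 to WT 4. They had the order of libraries of the CD3 chains, except that Mut 1 was above Mut 4.

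Leukocytes as a whole, read from 10 genes, summed to 606, 411, 511 and 476 CPM in Mut 1 to Mut 4 and to 369, 462, 415 and 445 CPM in WT 1 to WT 4, with 9 of 10 genes above 0, a median log2 fold change of 0.50 and 0 called by edgeR or DESeq2. *Ptprc*, which encodes CD45, was at 23.5 to 52.9 CPM in Thra1PV/+ and 18.8 to 31.9 CPM in WT endometrium, and its log2 fold change was 0.50 (SE 0.27, Benjamini-Hochberg adjusted p = 0.611 in edgeR's quasi-likelihood test). Other cells can hold granule genes too. The mast cell proteases with *Ms4a2* and *Cpa3*, a carboxypeptidase of mast cell granules, had 527 counts together in WT 1 and at most 26 in any other library, of which *Cpa3* gave 74 and at most 6. None of these 6 genes passed the filter on low counts. The full list of 8 mast cell genes had its lowest sum in WT 1 (38.8 CPM) and its highest in WT 2 (290 CPM). Most of these sums came from outside the 6 genes, which gave 10.1 CPM in WT 1 and 0.469 CPM in WT 2. By mean log2 CPM the full list was highest in WT 1, at 0.91, against -2.06 to -1.07 in the other libraries. Of 12 macrophage and dendritic cell genes, 11 neutrophil genes and 12 genes of other innate lymphoid cells, edgeR called 1, *Gata3*. DESeq2 also called *Il7r* and *Cxcr6* of the innate lymphoid list and *S100a9* and *Csf3r* of the neutrophil list, all higher in Thra1PV/+ endometrium. The 8 neutrophil genes tested had a median log2 fold change of 2.02, and 4 of them were higher at an unadjusted p under 0.05 in edgeR. The summed level of the 11 neutrophil genes was similar, at 8905 ± 3054 CPM in Thra1PV/+ and 8166 ± 7176 CPM in WT endometrium (SD, n = 4 each). It was highest in WT 3 (16038 CPM) and lowest in WT 2 (1300 CPM), as the simple epithelium sum was. Whether cells other than neutrophils gave these transcripts was not tested.

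**Figure D5:**
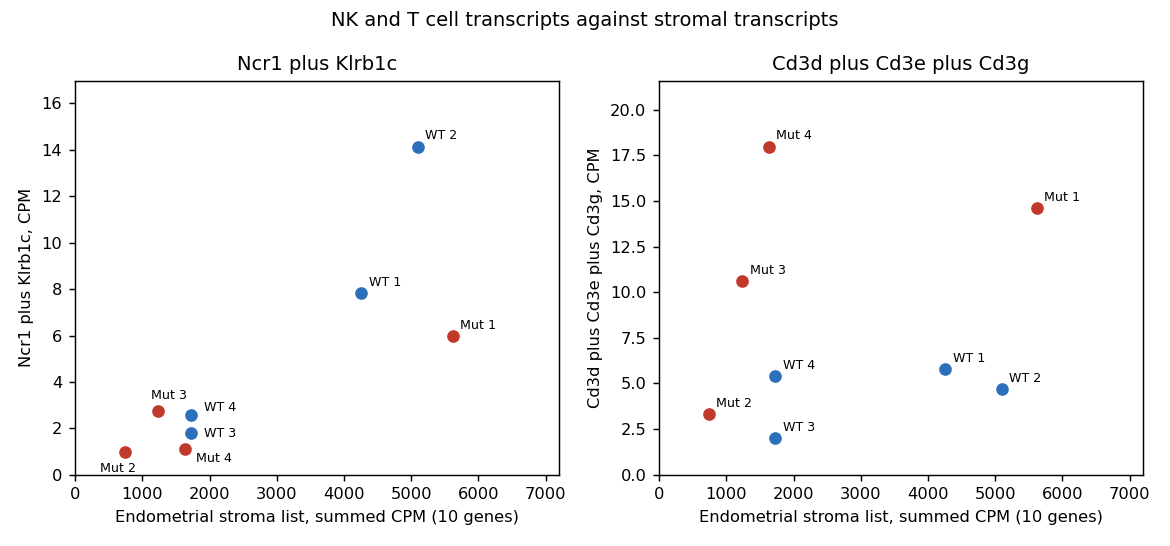
Summed CPM of *Ncr1* and *Klrb1c* (left) and of the 3 CD3 chains (right) in each library (y axes) against the summed CPM of 10 endometrial stroma genes (x axis), with Thra1PV/+ libraries in red and WT libraries in blue. On the left the 3 libraries with stromal sums of 4260 to 5620 CPM are the highest of the 8, and on the right the highest library is Mut 4, with a stromal sum of 1632 CPM.

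Levels were compared between genes on the deposited TPM scale, which allows for sequencing depth and transcript length. Averaged over the 8 libraries, the order was *Nkg7* (11.6 TPM), *Il15* (7.34), *Gzmb* (5.48), *Klrk1* (2.53), *Klrb1c* (1.89), *Gzma* (1.55), *Prf1* (1.22), *Ncr1* (1.12), *Eomes* (0.723) and *Tbx21* (0.717). Of neighbours in this order, only *Il15* and *Gzmb* differed by more than the SD of their difference over libraries, 0.82 against 0.76 on the log2 scale. *Nkg7* was above *Il15* in 4 of the 8 libraries, and *Gzmb* was above *Klrk1* in 7. By genotype, *Nkg7* averaged 5.39 ± 4.56 TPM in Thra1PV/+ and 17.9 ± 16.3 TPM in WT endometrium (SD, n = 4 each), and *Il15* 6.94 ± 2.20 and 7.75 ± 3.82 TPM. In Thra1PV/+ endometrium *Il15* was therefore the first of the 10 by mean and *Nkg7* the second. When CPM was divided by the length of all exons instead, 8 of the 10 ranks moved, *Klrk1* from 4 to 8.

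The tested genes whose log2 CPM ran most closely with a gene over the 8 libraries were named as a description. Since the libraries form groups of high and low stroma, shared composition may enter such values, and its part was not tested. *Klrb1c* ran closest with *Emc10*, *Arl2bp* and *Ncr1* (Pearson correlations of 0.98, 0.98 and 0.97 over 8 libraries), *Prf1* with *Map4*, *Grin2b* and *Xcl1* (0.98, 0.98 and 0.98), and *Nkg7* with *Asrgl1*, *Asb7* and *D630033O11Rik* (0.99, 0.99 and 0.99). Only *Ncr1* and *Xcl1*, a chemokine gene of NK and T cells, are themselves NK-associated among these 9. For *Klrk1* they were *Kif1a*, *1700028P14Rik* and *Gm48045*, for *Gzmb* *Gm5113*, *Fah* and *Slc6a13*, for *Eomes* *Zfyve21*, *Gm43268* and *Klf15*, for *Tbx21* *Zfp934*, *Gimap7* and *AI987944*, and for *Il15* *Slc38a5*, *Gm12258* and *A330076H08Rik*, with correlations between 0.93 and 0.99.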

How the data were processed

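mRNA of laser-captured endometrium was sequenced from 4 Thra1PV/+ and 4 WT mice as stranded, paired-end Illumina libraries. The authors trimmed reads with Trimmomatic, quantified them with salmon for mouse build mm10 and deposited estimated counts per gene, not normalized. Neither the version of salmon nor the annotation release is given in the sources used here. The deposited TPM values had the same distribution in all libraries, to within 0.291 TPM at any rank, as quantile normalization gives, and the authors' text does not mention that step. That table has 1 further column that matches no sample and was not used.

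Estimated counts, which summed to 48791602 to 59818887 per library, were rounded. Genes passing filterByExpr (minimum count 10, minimum total 15), 18174 of 52325, were normalized by TMM and tested for genotype alone with edgeR 4.0.16 (quasi-likelihood test) in R 4.3.3, with Benjamini-Hochberg adjustment over all genes tested. Standard errors came from the fitted information matrix and quasi-dispersion. Log2 CPM used a prior count of 2. The alternatives were DESeq2 1.42.0, other size factors, library size alone, a filter of at least 1 count, replicate number as a block, limma 3.58.1 (voom with quality weights, and log2 TPM with a pseudocount of 1 or 0.1) and each library left out in turn. A further 2, by stromal level, were added after seeing the data. The fits were tested on simulated data. P-values measure the spread between these libraries only.

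The 10 genes, the gene lists and the alternatives were chosen with earlier results of these data known, so the counts within lists carry no test. The genes named are the 10, called list genes, 16 list genes fixed with the lists, and for those of the 10 whose log2 CPM averaged 0 or more the 3 genes most correlated with each. *Gzmm*, *Prl8a2*, *Prl3c1*, *Klra4* and *Klra8* were named in addition, outside these rules. The remaining names are marked as chosen after their values were seen, or only spell out a list. Genotype cannot be checked from the counts, since they do not separate the PV allele from the normal one.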

Additional observations from a re-analysis of the deposited data

How the results depend on the processing

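None of the 10 genes was called in any of the 18 alternatives. Over the fits that left out 1 library, their median log2 fold change ranged from -1.14 (without Mut 1) to -0.33 (without WT 2), and the genes called over the whole table from 81 to 167, against 180 with all libraries. Without Mut 1, 3 of the 10 genes had an unadjusted p under 0.05 in edgeR, and without WT 3, 1 had (*Prf1*, log2 fold change -2.12). DESeq2 called more list genes than edgeR: 5 against 0 receptors, 1 against 0 granule genes, 2 against 0 T cell genes, 2 against 0 neutrophil genes and 3 against 1 genes of other innate lymphoid cells. The whole-table calls numbered 702 with DESeq2, 311 with limma voom and 82 with the replicate block. Same-numbered libraries did not deviate together (correlations of -0.44 to 0.34, with 2 of 8 libraries closest to their own number), so no pairing by number was seen. The highest correlation, 0.56, was between Mut 1 and WT 2, both rich in stroma. Since tissue makeup enters these values, they cannot show that the samples are unpaired. Under the block the median of the 10 was -0.44.

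Single genes changed sign as follows. *Gzmb* was at 0.18 under the block and at 0.18 with limma voom. Without WT 1, *Klrk1* was at 0.33. Without WT 2, *Gzmb* was at 0.94, *Tbx21* at 0.050 and *Il15* at 0.14. Over the fits without 1 library, *Klrk1* ranged from -0.55 to 0.33, *Gzmb* from -1.03 to 0.94, *Tbx21* from -0.75 to 0.050 and *Il15* from -0.46 to 0.14. In the 5 libraries poorer in stroma the median was 0.21, with *Ncr1* at 0.048, *Klrk1* at 0.28, *Gzmb* at 0.60, *Eomes* at 0.39, *Tbx21* at 0.61 and *Il15* at 0.14. With stromal level as a term the median was 0.064, with *Ncr1* at 0.15, *Klrk1* at 0.081, *Gzmb* at 0.48, *Tbx21* at 0.58 and *Il15* at 0.047. The cause of these changes was not tested. The other size factors, filter and TPM fits kept the sign of each of the 10. The counts of the 10 genes ran from 15 to 1198 in a library, and standard errors of 0.39 to 0.93 on the log2 scale set the precision, against a difference of 1 needed for a call.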
